A study of Homo sapiens with 11 samples.

Results

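The genes described here are 10 regulators of the step from G1 into S phase of the cell cycle. They are the kinase inhibitors CDKN1A (p21), CDKN1B (p27) and CDKN1C (p57), the pocket proteins RB1, RBL1 (p107) and RBL2 (p130), the D-type cyclins CCND1 and CCND2, and the kinases CDK2 and CDK6. They were chosen by name: every probe whose gene name in the scanner files is one of these 10 was taken, which gave 20 of the 41000 probes on the array. Of the 17 member probes tested, 1 passed the test between mock and the duplexes that share a seed, beside 4.19% of all 27118 probes tested. It was a probe of RBL2. This probe, A_24_P416159, was 1.63-fold lower after transfection with these duplexes (log2 difference -0.71, SE 0.11, 6 against 4 arrays, limma adjusted p = 0.0174). Its call held in 6 of 10 fits that left out 1 array, and the second RBL2 probe did not pass (-0.57, limma adjusted p = 0.14). Both probes of RBL1 lay below mock by a similar size and both probes of CDK6 above it. In the fit of all 11 arrays none of these passed the adjusted threshold. RBL1 A_23_P28733 passed under some other ways of processing the arrays, but in only 1 of 10 fits that left out 1 array.

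All samples are PC-3 cells, a human prostate cancer line, taken 24 h after transfection, and their RNA was hybridised to 11 one-colour Agilent arrays of the whole human genome. Mock cells received the transfection reagent alone (4 arrays). The other cells received the same reagent with a synthetic duplex, which was miR-372 on 2 arrays and, on 1 array each, miR-520c, miR-520f, miR-373, miR-302a or dsEcad640 (written dsEcad-640 in the labels). RNA of 4 transfections was pooled per array (150 ng), so variation from one transfection to the next is hidden, and the labels do not say whether the mock arrays come from separate pools. The p-values therefore measure the spread between these arrays, which may be partly technical. Where different duplexes are grouped, this spread also holds the differences between them. The arrays lie on 3 slides, called sets. Set 1 has mock (sample 1) with dsEcad640 (sample 2), miR-302a (sample 3) and a first array of miR-372 (sample 4). Set 2 has mock (sample 8) with miR-520f (sample 6) and miR-373 (sample 7). Set 3 has mock in samples 9 and 11, the second array of miR-372 (sample 10) and miR-520c (sample 12). Sample 6 is titled miR-530f, but its remaining labels all give miR-520f, under which it is reported. dsEcad640 is a small interfering RNA designed against the promoter of E-cadherin. It was studied beside the miRNAs because its guide strand carries their seed, and the arrays address whether RNAs with a common seed change the same transcripts.

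In G1 phase, RB1, RBL1 and RBL2 bind E2F transcription factors and hold back the genes needed for DNA replication. Cyclin D with CDK6 (or CDK4), followed by cyclin E with CDK2, phosphorylates the pocket proteins and releases E2F, whereas p21, p27 and p57 bind cyclin-CDK complexes and restrain them. A miRNA lowers mRNAs that pair with its seed, the bases near its 5′ end, and miRNAs with the seed studied here are known from embryonic stem cells, in which p21 and RBL2 have been described among their targets. Much of the control of p27 and of the pocket proteins takes place on the protein, which was not measured here.

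The mature miRNAs are shown because their seeds define the groups compared. Below, bases 2 to 8 are in capitals, and the sequences and positions are those of RefSeq for GRCh38.p14, in which all 5 miRNAs had an entry.
hsa-miR-302a-3p: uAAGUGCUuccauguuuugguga
hsa-miR-372-3p: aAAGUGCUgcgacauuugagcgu
hsa-miR-373-3p: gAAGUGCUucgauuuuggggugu
hsa-miR-520c-3p: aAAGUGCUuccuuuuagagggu
hsa-miR-520f-3p: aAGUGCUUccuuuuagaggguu
miR-302a lies at chr4:112648186-112648208 on the minus strand. The other miRNAs lie on the plus strand of chromosome 19, miR-520f at chr19:53682213-53682234, miR-520c at chr19:53707506-53707527, miR-372 at chr19:53787931-53787953 and miR-373 at chr19:53788748-53788770. AAGUGCU stands at bases 2 to 8 of all but miR-520f, whereas in miR-520f these 7 bases stand at positions 1 to 7 and bases 2 to 8 read AGUGCUU. The 4 miRNAs with the seed AAGUGCU and dsEcad640 are the common-seed duplexes (6 arrays), and miR-520f was compared with mock and with them separately. These 6 arrays hold different duplexes, with miR-372 counted on 2 of them, so they are not replicates of 1 condition.

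Signals are given on a log2 scale, after background subtraction, as the distance from the 75th percentile of the same array, so 0 is a fairly bright signal, and the level of one probe cannot be set against that of another. The difference within a set is the value of an array minus the mean of the mock arrays on its slide. Per array, 54.3% to 72.7% of the probes were well above background, except on miR-372 sample 4 with 88.1%. On this array all 7 tested member probes with a mean mock signal under -2 read above mock sample 1 (by 0.13 to 2.39, median 0.75), whereas 5 of the 10 brighter ones did (median 0.01). For these 7 probes, and wherever it changed a call, the difference is also given without this array, and its part in the differences was not tested otherwise. Mock samples 9 and 11, which share a slide, differed by a median of 0.22 and by 0.79 at the 95th percentile over all probes tested. Of the marker probes of the line, those of KRT8, KRT18, VIM and EPCAM were well above background on all 11 arrays. Of the 3 probes of KLK3, 1 was also well above background on all 11, which goes against its low level in this line. The keratin probes were the marker probes that passed the test, with 5 of 11 higher under the common-seed duplexes (KRT8 by up to 0.88 and KRT18 by up to 0.78).

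Of the 20 member probes, 17 probes of 9 genes passed the filter (well above background on 6 or more arrays) and were tested. The common-seed duplexes were compared with mock by limma with the set as a block. 1 member probe was lower and 0 were higher, beside 4.19% of all 27118 probes tested (2.05% lower and 2.14% higher). The median difference of the 17 probes was -0.05, against 0.03 over all probes. At an unadjusted p under 0.05, 8 of the 17 passed, 4 in each direction, beside 21.1% of all probes. The signal of all 6 common-seed arrays lay below all 4 mock arrays for 2 of the 17 probes, one each of RBL1 and RBL2, and above them for 0, where the shares over all probes were 3.43% and 3.26%. Against the mock mean of their set, the same 2 probes lay below on 6 of 6 common-seed arrays, beside 11.6% of all probes. On 6 of 6 arrays 4 lay above it (CDKN1B A_24_P81841, CCND1 A_24_P193011 and both of CDK6), beside 16.5% of all probes. Without miR-372 sample 4 the same fit called 7 member probes, 6 lower (CDKN1A, both RBL1, both RBL2 and CDK2) and 1 higher (CCND1), beside 7.08% of all probes (4.14% lower and 2.93% higher). Without any one of mock samples 1, 8 and 11 or miR-373 it called 0. Calls over all probes also changed with the array left out, with the fewest, 24 of 27118, without mock sample 1. In the plot of fitted differences, the dim probe A_24_P102636 of RB1 has the widest interval of the 17 for the common-seed duplexes (-0.93 to 1.47).

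**Figure D1:**
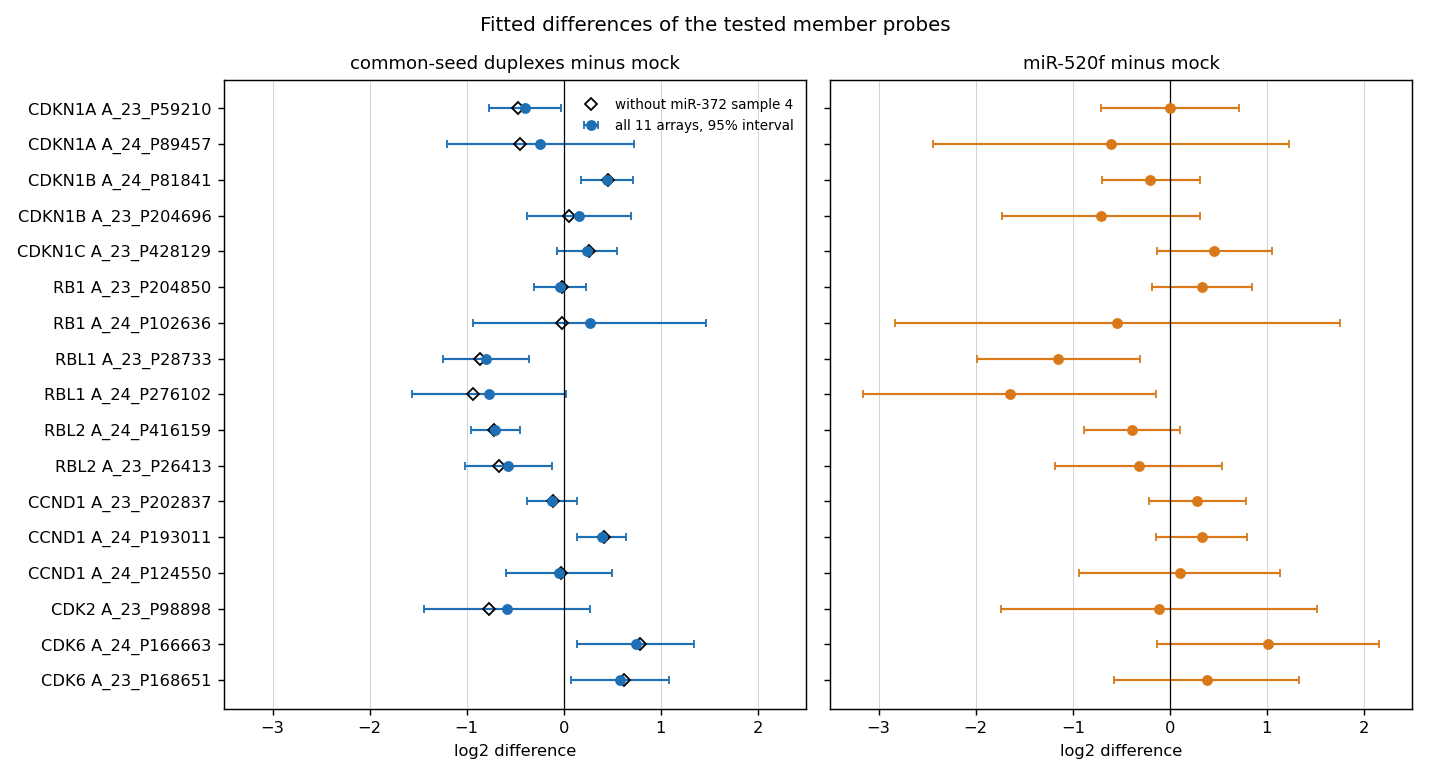
Log2 difference from mock (horizontal axis) of the 17 tested member probes (vertical axis), for the 6 common-seed arrays (left) and for the miR-520f array (right), as fitted values with 95% intervals; open diamonds give the fit without miR-372 sample 4. Both RBL2 and both RBL1 probes lie left of 0 and both CDK6 probes right of 0 in both panels, and the interval of RBL2 A_24_P416159 on the left runs from -0.96 to -0.45. On the right, the dim probes of CDKN1A, CDKN1B, RB1 and RBL1 are drawn at measured signals that were not well above background with miR-520f, so they stand for bounds.

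RBL2, the pocket protein p130 that holds E2F target genes silent in resting cells, was measured by 2 probes (chr16:52082347-52082406 and chr16:52081616-52081675 in hg18). The brighter one, A_24_P416159, read -0.65, -0.49, -0.71 and -0.58 on mock samples 1, 8, 9 and 11. It read -1.70 with dsEcad640, -1.47 with miR-302a, -1.36 and -1.15 with miR-372 samples 4 and 10, -1.04 with miR-373 and -1.46 with miR-520c. All 6 arrays of the common-seed duplexes lay below all mock arrays, with no overlap (-1.37 ± 0.24, SD, n = 6, against -0.61 ± 0.09, n = 4), and the signal fell by 38.7% (95% interval of the log2 difference -0.96 to -0.45, limma adjusted p = 0.0174). In these bulk samples, fewer cells with the transcript and less of it per cell cannot be told apart. Within the sets the difference was -0.87 in set 1, -0.55 in set 2 and -0.66 in set 3. Leaving out 1 array at a time moved the difference between -0.77 and -0.63, and the adjusted p passed the threshold in 6 of 10 such fits and was 0.151 without mock sample 1, 0.0577 without mock sample 8 or miR-373, and 0.0627 without mock sample 11. With no filter on dim probes, over all 41000, it was 0.0653. The second probe, A_23_P26413, lay at -2.44, -2.37, -2.81 and -2.91 on the mock arrays and between -3.73 and -2.30 on the common-seed arrays. It was below the mock mean of its set on 5 of 6 arrays, the exception being miR-372 sample 4 at 0.13 above, and it was -0.57 from mock (95% interval -1.02 to -0.12, adjusted p = 0.14), or -0.67 without that array (limma adjusted p = 0.0176).

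RBL1 encodes p107, the pocket protein that cells make mainly as they leave G1. Its probe A_23_P28733 (chr20:35060611-35060670) read -1.51, -1.50, -0.99 and -0.62 on mock samples 1, 8, 9 and 11. The common-seed arrays gave -2.74 with dsEcad640, -2.10 with miR-302a, -1.84 and -1.87 with miR-372 samples 4 and 10, -2.02 with miR-373 and -1.73 with miR-520c. These 6 values also lay below all 4 mock values, although the mock values of set 3 were about as far above those of sets 1 and 2 as some duplexes were below. The fitted difference was -0.80 (SE 0.19, 95% interval -1.24 to -0.36), or 1.74-fold lower, with a limma adjusted p of 0.0598. It was -0.72 in set 1, -0.52 in set 2 and -1.0 in set 3, and without miR-372 sample 4 it was -0.86 with an adjusted p of 0.0246. It also passed under 5 of 7 other ways of processing the arrays, such as quantile normalization (adjusted p = 0.0281). Of the 10 fits that left out 1 array, however, the fit without miR-372 sample 4 was the 1 that passed. The limma adjusted p was up to 0.225 in the others, the value without mock sample 1. The other probe, A_24_P276102 (chr20:35069243-35069302), is dim and was not well above background with miR-373 and miR-520f. Its approximate bounds there were at least 1.34-fold and at least 1.03-fold lower than in mock sample 8. Its difference was -0.77 (95% interval -1.56 to 0.02, limma adjusted p = 0.252), or -0.93 with an adjusted p of 0.0357 without miR-372 sample 4, which alone read above its mock array, by 0.67.

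RB1, the retinoblastoma protein, did not differ between the groups beyond the spread of the arrays. Its probe A_23_P204850 (chr13:47953846-47953905) stands on 10 spots per array, which differed by a median SD of 0.0364 within an array. The mock arrays gave 1.87, 1.98, 2.23 and 2.43, and the common-seed arrays ran from 1.67 to 2.62 with a median of 1.83. The groups overlapped, and the difference of -0.04 had an interval of -0.31 to 0.23 (limma adjusted p = 0.894). The second probe, A_24_P102636, lay at -4.50 to -4.21 on mock arrays and at -4.47 to -4.09 on 5 of the common-seed arrays, but at -1.83 on miR-372 sample 4. Its difference was 0.27 with that array and -0.02 without it.

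**Figure D2:**
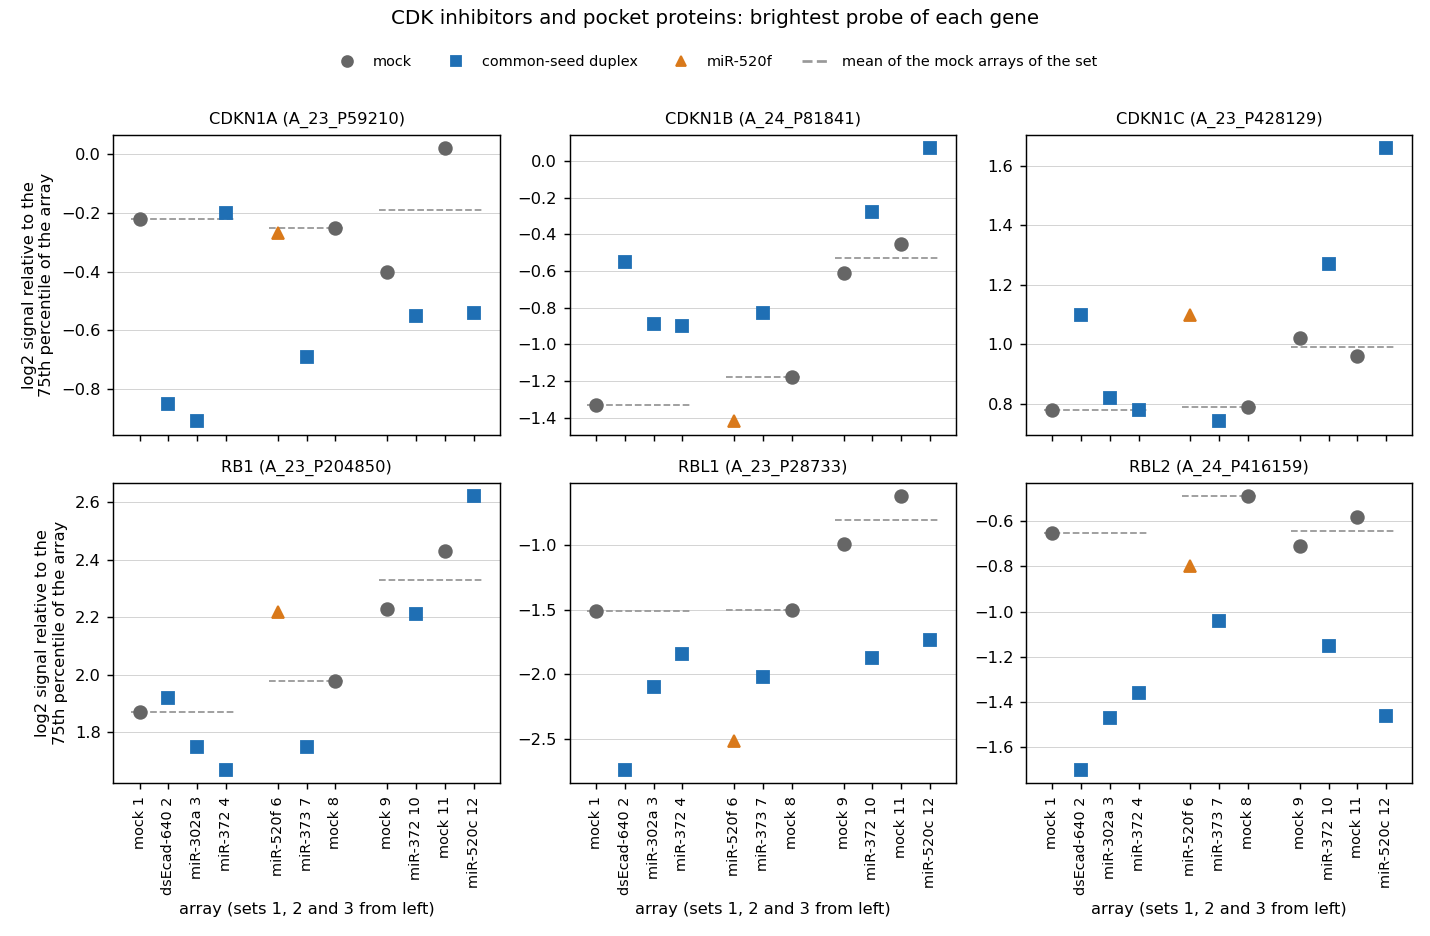
Log2 signal minus the 75th percentile of its array (vertical axis) on each of the 11 arrays (horizontal axis, by set), for the brightest probe of the 3 inhibitors and the 3 pocket proteins; each point is 1 array and dashed lines are the mean of the mock arrays of a set. All 6 common-seed squares lie under all 4 mock circles for RBL1 and RBL2, and the miR-520f triangle lies near mock for CDKN1A and far under it for RBL1.

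CDKN1A encodes p21, which inhibits CDK2 complexes. Its probe A_23_P59210 (chr6:36762684-36762743, 10 spots) gave -0.22, -0.25, -0.40 and 0.02 on mock samples 1, 8, 9 and 11. Its signal was -0.85 with dsEcad640, -0.91 with miR-302a, -0.20 and -0.55 with miR-372 samples 4 and 10, -0.69 with miR-373 and -0.54 with miR-520c. All of these but miR-372 sample 4, which read 0.02 above its mock array, lay below every mock array. The 2 mock arrays of set 3 differed by 0.41, as much as the fitted difference of -0.40 (SE 0.16, 95% interval -0.77 to -0.03), and the limma adjusted p was 0.205. In the sets the difference was -0.44, -0.45 and -0.35, and without miR-372 sample 4 it was -0.47 with an adjusted p of 0.0483. The dim probe A_24_P89457 (chr6:36760156-36760215) differed by -0.24 (interval -1.20 to 0.72, adjusted p = 0.81). It read 1.38 above mock sample 1 on miR-372 sample 4, without which the difference was -0.45 (limma adjusted p = 0.205), and it was not well above background with miR-373 and miR-520f.

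CDKN1B, which encodes p27, went the other way on its bright probe. A_24_P81841 (chr12:12766207-12766266, 10 spots) gave -1.33, -1.18, -0.61 and -0.45 on mock samples 1, 8, 9 and 11. The common-seed arrays gave -0.55 with dsEcad640, -0.89 with miR-302a, -0.90 and -0.28 with miR-372 samples 4 and 10, -0.83 with miR-373 and 0.07 with miR-520c. The groups overlapped because set 3 read higher in both, whereas within its set each of the 6 arrays lay above mock, by 0.25 to 0.78. The fitted difference was 0.45 (SE 0.11, 95% interval 0.18 to 0.71), or 1.37-fold, with a limma adjusted p of 0.0706. Its second probe, A_23_P204696 (chr12:12762386-12762445), was not well above background with miR-373 and miR-520f. It differed by 0.16 (interval -0.38 to 0.69, adjusted p = 0.775), or by 0.05 without miR-372 sample 4 (limma adjusted p = 0.85), and turned to -0.03 after quantile normalization and -0.01 with normexp background correction. CDKN1C, which encodes p57 and is expressed from the maternal copy, was read by 1 probe at 0.78 to 1.02 on mock arrays and at 0.74 to 1.66 on common-seed arrays, and its difference of 0.24 had an interval of -0.07 to 0.55 (adjusted p = 0.365).

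CCND1, the cyclin D1 partner of CDK6 and CDK4, was measured by 3 bright probes that gave different answers. A_24_P193011 (chr11:69167820-69167879) lay above mock on 6 of 6 common-seed arrays, by 0.02 to 0.60, with a fitted difference of 0.39 (SE 0.11, 95% interval 0.14 to 0.64, limma adjusted p = 0.0834, and 0.42 with an adjusted p of 0.0462 without miR-372 sample 4). A_23_P202837 (chr11:69177414-69177473, 10 spots) differed by -0.12 (interval -0.38 to 0.14, adjusted p = 0.62). For A_24_P124550 (chr11:69176451-69176510) the value was -0.05 (interval -0.59 to 0.50), with 5 of 6 arrays above mock and miR-520c at -0.95. In sets 1 and 2 the common-seed arrays lay within 0.35 of mock on all 3 probes, and in set 3 the probes came apart, as miR-372 sample 10 and miR-520c differed from mock by 0.60 and 0.55 on the first probe, by -0.32 and -0.41 on the second, and by 0.11 and -0.95 on the third. The level of A_23_P202837 itself depended on the slide, with 3.76 and 3.84 on mock samples 1 and 8 and 3.05 and 2.79 on mock samples 9 and 11, and without the block its difference was 0.06. CCND2, cyclin D2, was not well above background with any of its 3 probes on any mock array, and 1 probe was so on 1 array, miR-372 sample 4, at least 3.80-fold above mock sample 1. It was not tested.

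**Figure D3:**
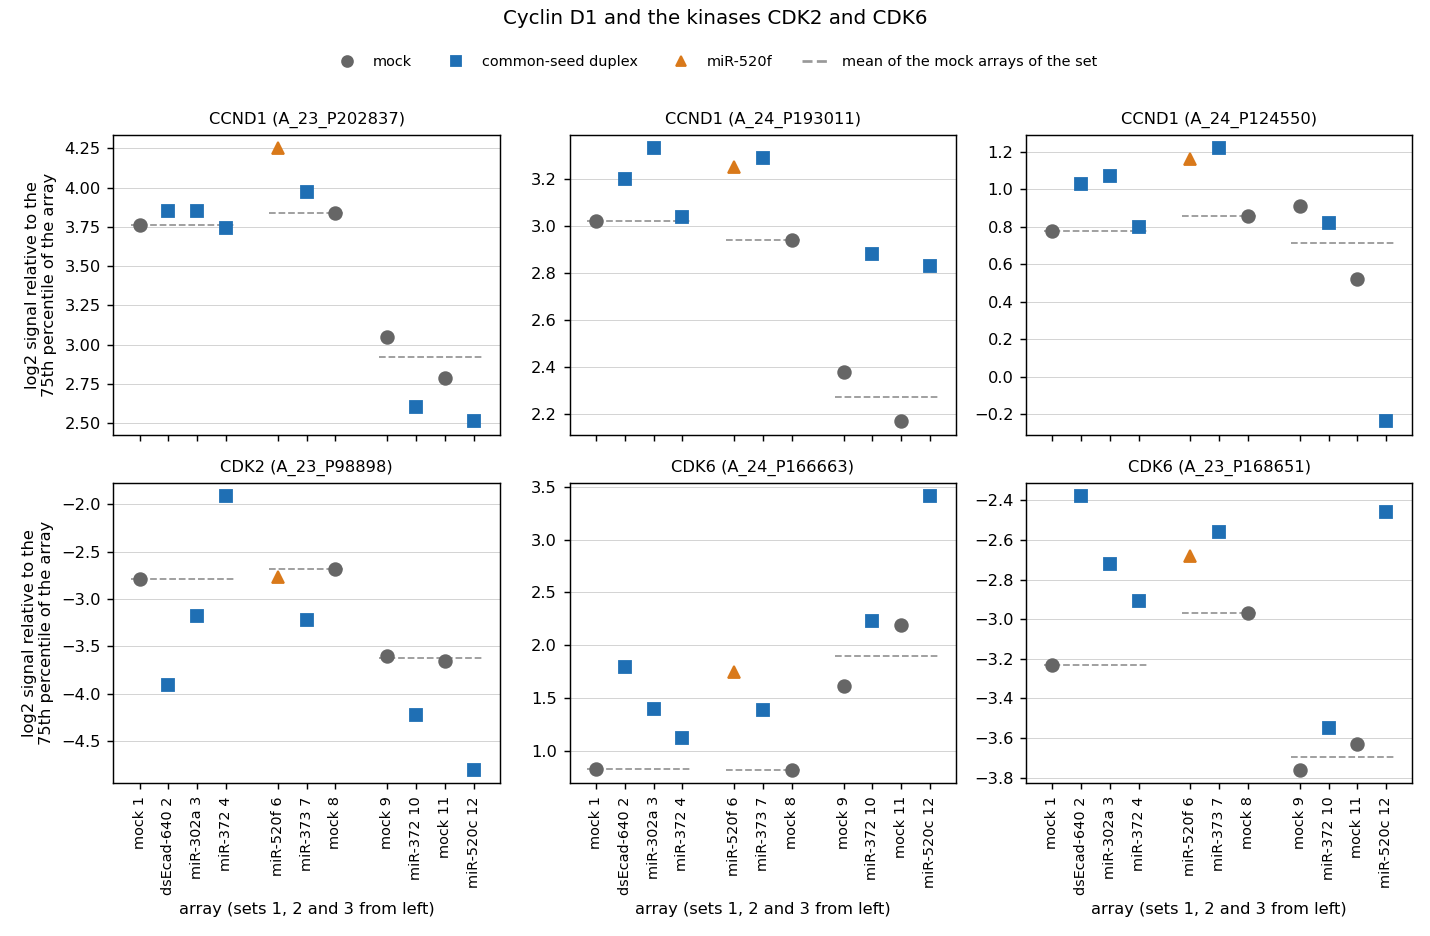
Log2 signal minus the 75th percentile of its array (vertical axis) on each of the 11 arrays (horizontal axis, by set), for the 3 probes of CCND1, the probe of CDK2 and both probes of CDK6; each point is 1 array and dashed lines are the mean of the mock arrays of a set. Every duplex array lies above the dashed line of its set for both CDK6 probes, and set 3 stands apart from sets 1 and 2 for CCND1.

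CDK6, the kinase that with cyclin D starts the phosphorylation of the pocket proteins, was above mock on every duplex array with both of its probes. Over the 6 common-seed arrays, 16.5% of all probes also lay above the mock mean of their set on each array. A_24_P166663 (chr7:92072379-92072438) gave 0.83, 0.82, 1.61 and 2.19 on mock samples 1, 8, 9 and 11. It gave 1.79 with dsEcad640, 1.40 with miR-302a, 1.12 and 2.23 with miR-372 samples 4 and 10, 1.39 with miR-373, 3.41 with miR-520c and 1.75 with miR-520f. Set 3 read higher in both groups, so the groups overlapped, and miR-520c stood highest, 1.51 above the mock mean of its set. The fitted difference of the common-seed duplexes was 0.74 (SE 0.26, 95% interval 0.14 to 1.34), or 1.67-fold, with a limma adjusted p of 0.152. The dim probe A_23_P168651 (chr7:92090309-92138707) lay 0.14 to 1.23 above mock on the 6 arrays, again with miR-520c highest, and differed by 0.58 (SE 0.22, 95% interval 0.08 to 1.09, adjusted p = 0.172), or by 0.62 without miR-372 sample 4 (limma adjusted p = 0.114). CDK2, the kinase that p21 and p27 restrain, was read by 1 dim probe of 10 spots, A_23_P98898 (chr12:54652056-54652115). It gave -2.79, -2.68, -3.60 and -3.65 on mock samples 1, 8, 9 and 11, and it was below the mock mean of its set on 5 of 6 common-seed arrays, by 1.12 with dsEcad640, 0.39 with miR-302a, 0.54 with miR-373, 0.59 with miR-372 sample 10 and 1.18 with miR-520c. On miR-372 sample 4 it was 0.88 above. The difference was -0.58 (SE 0.37, 95% interval -1.44 to 0.27, limma adjusted p = 0.428), and -0.77 with an adjusted p of 0.0463 without that array.

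In a fit with a mean for each duplex, 0 of the 17 member probes passed the adjusted threshold under any duplex, as did 0% of all probes. In simulated arrays this fit recovered 0% of probes changed by 1 or by 2 on the log2 scale. The simulated spread was that left by the fit of mock, common-seed duplexes and miR-520f, which also holds differences between duplexes. The lack of calls therefore does not show that the members were unchanged. At an unadjusted p under 0.05, 7 of the 17 passed under dsEcad640 and 7 under miR-520c (beside 7.81% and 17% of all probes), 2 under miR-372, 1 under miR-302a, and 0 under miR-373 and miR-520f (beside 9.54%, 3.92%, 3.58% and 7.54%). The differences of RBL2 A_24_P416159 ran from -1.0 with dsEcad640 over -0.85 with miR-520c, -0.77 with miR-302a, -0.60 with miR-372 and -0.55 with miR-373 to -0.31 with miR-520f. Neighbours in this order stood closer together than the reach of their intervals (-1.57 to -0.42 for dsEcad640 and -1.37 to -0.33 for miR-520c). CDK6 under miR-520c had the member intervals farthest above 0, at 1.5 (0.70 to 2.31) and 1.26 (0.74 to 1.77), with a limma adjusted p of 0.266 for both.

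**Figure D4:**
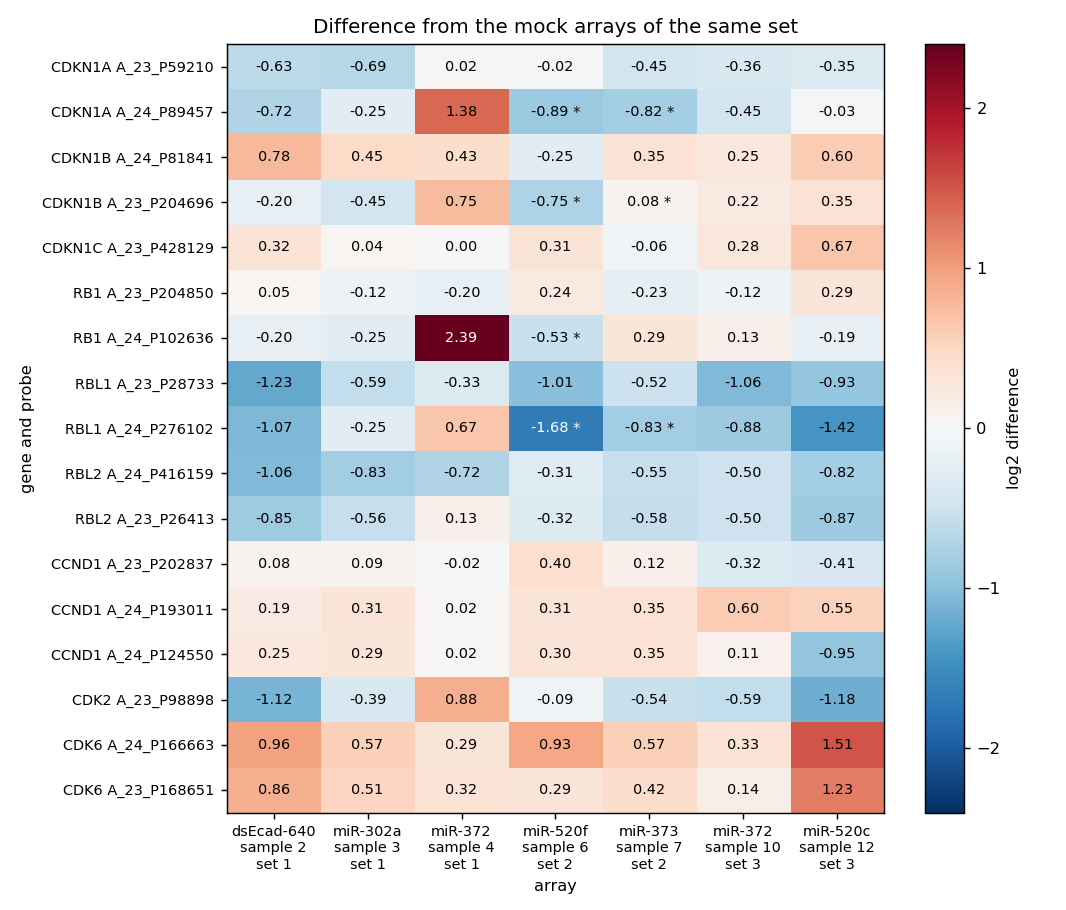
Log2 difference from the mock arrays of the same set, in colour and in numbers, for the 17 tested member probes (rows) on the 7 duplex arrays (columns); an asterisk marks a signal that was not well above background. RBL1 and RBL2 are blue in all columns but miR-372 sample 4, where 1 probe of each is red, CDK6 is red in all columns, and the dim second probes of CDKN1A and RB1 are red on miR-372 sample 4 (1.38 and 2.39).

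The miR-520f array was compared with mock in the same fit, in which its spread is taken from the other arrays, and 0 of the 17 member probes passed in limma, beside 0.658% of 27070 probes, while 2 passed at an unadjusted p under 0.05, both of RBL1 (12.4% of all probes). Of these, the dim A_24_P276102 was not well above background on this array, so its p rests on a signal that is only a bound. RBL1 A_23_P28733 read -2.52 with miR-520f and -1.50 on mock sample 8 of the same slide, and its fitted difference was -1.15 (SE 0.36, 95% interval -1.99 to -0.31, limma adjusted p = 0.232). For the dim RBL1 probe, only the approximate bound given above is available, at least 1.03-fold lower than in mock sample 8. RBL2 A_24_P416159 read -0.80, between mock sample 8 at -0.49 and miR-373 at -1.04, and differed from mock by -0.39 (interval -0.88 to 0.10). CDKN1A A_23_P59210 read -0.27 against -0.25 on mock sample 8, with a fitted difference of 0.00 (interval -0.71 to 0.71). CDK6 A_24_P166663 differed by 1.01 (interval -0.13 to 2.16, adjusted p = 0.475). These intervals are wide, as the value rests on 1 array.

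Set against the common-seed duplexes, 0 of the 17 member probes differed under miR-520f at the adjusted threshold, beside 0.0591% of all probes, and 1 passed at an unadjusted p under 0.05 (7.41% of all probes). That probe was CDKN1B A_24_P81841, which read -1.42 with miR-520f and -1.18 on mock sample 8 of the same slide. From mock it differed by a fitted -0.20 (95% interval -0.70 to 0.31). It stood 0.65 below the common-seed duplexes on the log2 scale (difference -0.65, SE 0.22, 95% interval -1.15 to -0.14, limma adjusted p = 0.494). For RBL2 A_24_P416159 the difference between the effects was 0.31 (interval -0.17 to 0.80), for RBL1 A_23_P28733 it was -0.36 (interval -1.20 to 0.49), and for CDKN1A A_23_P59210 it was 0.40 (interval -0.31 to 1.11). The effects of the shifted and the common seed on these genes were not told apart, and the intervals are wide enough that this does not show them to be alike.

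Among 36 other regulators of G1, 35 genes with 56 probes were tested, and 2 probes were lower and 4 higher under the common-seed duplexes (median difference 0.09), beside 2.05% and 2.14% of all probes. At an unadjusted p under 0.05, 20 of the 56 passed, 6 lower and 14 higher, beside 21.1% of all probes. LIN52, a subunit of the MuvB core to which RBL1 and RBL2 bind in the DREAM complex, fell from -2.14 ± 0.04 (SD, n = 4 mock arrays) to -3.44 ± 0.17 (SD, n = 6), by a fitted -1.32 (SE 0.10, limma adjusted p = 0.00176). CDKN2D, the inhibitor p19 of CDK4 and CDK6, fell by 0.49 (log2 difference -0.49, SE 0.11, adjusted p = 0.0496). E2F5, an E2F factor that binds RBL2, rose by 0.81 (SE 0.10, limma adjusted p = 0.00913), and it also passed against mock under miR-520f, at 1.47 (adjusted p = 0.0287). CCNE1, the cyclin E1 partner of CDK2, rose by 0.73 (SE 0.15, limma adjusted p = 0.0408), CDK7, a kinase that activates other CDKs, by 0.53 (SE 0.09, adjusted p = 0.0195), and CDC25A, the phosphatase that activates CDK2, by 0.60 with its dim probe (SE 0.09, adjusted p = 0.0153). The bright probe of CDC25A differed by 0.43 (adjusted p = 0.186). The call of LIN52 held in 10 of 10 fits that left out 1 array. It was lost after quantile normalization (difference -1.49, limma adjusted p = 0.14) and in the authors' log2 table (-1.47, adjusted p = 0.0575). That of E2F5 was lost without mock sample 1 (0.76, adjusted p = 0.0953). CCNE1, CDKN2D, CDK7 and CDC25A passed in 1, 2, 4 and 5 of the 10 fits that left out 1 array, with adjusted p up to 0.22, 0.257, 0.141 and 0.141, each the value without mock sample 1. Under the 7 other ways of processing the arrays, CCNE1 passed in 5, CDKN2D and CDK7 in 4 each and CDC25A in 2, with adjusted p up to 0.12, 0.365, 0.649 and 0.226. Each of the 6 called probes lay on the same side of the mock mean of its set on 6 of 6 common-seed arrays, which their choice on these arrays largely fixes (11.6% of all probes lay below on 6 of 6, and 16.5% above).

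The other inhibitors of this list did not pass: CDKN2B, p15, differed by -0.96 (adjusted p = 0.118) with its bright probe, CDKN2C, p18, by -0.60 (adjusted p = 0.176) and CDKN2A by -0.12 and -0.02. Of 18 genes of DNA replication that E2F drives, 24 probes were tested, and 0 were lower or higher in the limma fit of the common-seed duplexes (median 0.06), beside 4.19% of all probes called, while 9 of the 24 passed at an unadjusted p under 0.05, 2 lower and 7 higher, beside 21.1% of all probes. CDT1, which licenses replication origins, differed by 0.52 (adjusted p = 0.19).

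Over the 11 arrays, each set centred on its mean, the probes of other genes most like RBL2 A_24_P416159 were those of GNPDA2 (Pearson r = 0.99), NFIB (0.988) and DAZAP2 (0.986). Their differences under the common-seed duplexes were -1.63, -1.25 and -1.91, and all 3 passed the test (adjusted p = 0.00698, 0.00783 and 0.00588). CDKN1A A_23_P59210 was most like WNT4 (0.978), MCART2 (0.967) and LYPD6 (0.951), of which none passed, with differences of -0.39, -0.33 and -0.23. CCND1 A_23_P202837 was most like SAP18 (0.962), ZNF207 (0.925) and C19orf42 (0.922), with differences of -0.10, -0.06 and -0.06. These are the highest of 26919 correlations each, taken on the same arrays and slides, and they are given as a description. For the probes like RBL2 A_24_P416159, which itself passed, this choice on the same arrays largely fixes that they passed as well.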

How the data were processed

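The authors deposited the scanner output of 11 one-colour Agilent arrays, made with Feature Extraction 10.5.1.1 per the file headers. The deposited intensity values are the processed signal, which the authors' software had corrected for background and for trends over the slide, without scaling between arrays. They also deposited log2 values normalized by a method not given in the sources used here. Probe coordinates are those of hg18, for which no annotation was used here, so exons and UTRs are not stated.

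Each intensity was put on a log2 scale, the array's 75th percentile was subtracted, spots marked as outliers were dropped (52 to 209 of 43376 per array), and probes with several spots took their mean. A probe counts as well above background where a share of over 0.5 of its spots does, and 27118 probes with this on at least 6 of 11 arrays were tested. limma 3.58.1 in R 4.3.3 fitted mock, the common-seed duplexes and miR-520f with the set as a fixed block (6 residual degrees of freedom, median residual SD 0.215), or a mean per duplex (2 residual degrees of freedom), with Benjamini-Hochberg adjustment and a threshold of 0.05. A fold against a signal not well above background is a bound. It uses the lowest signal well above background on that array, or the probe's own signal where this is higher. The bound is approximate: with miR-373 this limit was -4.52, yet CDKN1B A_23_P204696 at -4.32 was not well above background. In simulated arrays with 200 changed probes among 27118, the comparison of the common-seed duplexes with mock recovered 63.5% at a log2 change of 1 and 88% at 2, and that of miR-520f with mock 0% and 61.5%. The number of arrays limits the precision. Figures were drawn with Python 3.11.15 and matplotlib 3.10.9.

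The members and lists were chosen with earlier results of these data known. Named beside the members are, per list and direction, up to 5 genes with the largest change among those past the threshold (where none passed, the 2 largest in size; some items this rule names are not reported here), and the 3 probes most like CDKN1A, RBL2 and CCND1. Alternatives were quantile normalization, normexp (offset 50), testing every probe, testing those well above background on each array, no or a random set block, and the authors' log2 table. Each array but that of miR-520f was also left out in turn (10 fits).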

Additional observations from a re-analysis of the deposited data

Results flagged for a closer look

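Within groups of 4 to 6 arrays, 34 checks for an array far from the others were made over the tested member probes, and 5 stood out, where chance gives about 1 in 20. Of these, 3 are differences of miR-372 sample 4 from mock sample 1: 1.38 for CDKN1A A_24_P89457, 2.39 for RB1 A_24_P102636 and 0.13 for RBL2 A_23_P26413, each far above the other 5 common-seed arrays. These probes are dim, and 88.1% of all probes were well above background on this array, more than on any other. For RB1 A_24_P102636, mock sample 8 at -4.50 also lay apart from the other mock arrays at -4.24 to -4.21. For CCND1 A_24_P124550, miR-520c at -0.95 lay apart from the other 5 common-seed arrays, which were 0.02 to 0.35 above mock. What made these arrays differ was not tested.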

How the results depend on the processing

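RBL2 A_24_P416159 stayed below mock in all 17 alternatives, at -0.77 to -0.57. RBL1 A_23_P28733 (-0.90 to -0.63), CDKN1A A_23_P59210 (-0.48 to -0.34), CDKN1B A_24_P81841 (0.33 to 0.51), CDK2 (-0.77 to -0.28) and both CDK6 probes (0.27 to 0.91) also kept their sign in every one. The limma fit called 1 member probe, and the count was 3 with quantile normalization, 3 with normexp, 3 with the authors' table, 2 with a random block, 4 with a filter on all 11 arrays, 0 without a filter, and 0 to 7 when an array was left out. The counts over all probes moved as well. For the common-seed duplexes against mock, 1136 of 27118 probes were called, against 1269 with quantile normalization, 1426 with normexp and 1485 with a random block. There were 215 of 41000 without a filter, 2093 of 21403 with the strict filter and 2012 of 21375 in the authors' table. Without the set block there were 388, and with an array left out from 24 (without mock sample 1) to 1919 (without miR-372 sample 4). For miR-520f against mock, 178 became 441 (quantile), 93 (normexp), 1 (no filter), 337 (strict filter), 84 (no block), 378 (random block), 289 (authors' table) and, without single arrays, 0 to 786. For miR-520f against the common-seed duplexes, 16 became 170, 29, 0, 63, 114 with a random block and 49 in the authors' table, and 0 to 335 without single arrays. The fit of each duplex called 0 probes, but 28, 35, 1 and 140 under dsEcad640, miR-372, miR-373 and miR-520c with normexp, 60, 49 and 136 under dsEcad640, miR-372 and miR-520c with a random block, and without single arrays, with 1 residual degree of freedom where a mock or miR-372 array was missing, 0 to 2694 under dsEcad640, 0 to 1816 under miR-302a, 0 to 3399 under miR-372, 0 to 123 under miR-520f, 0 to 111 under miR-373 and 0 to 261 under miR-520c. Mock sample 8 was the exception: without it the fit kept 2 residual degrees of freedom, and miR-373 and miR-520f could not be fitted alone. Signs turned where values were near 0: CDKN1B A_23_P204696 became -0.03 with quantile normalization and -0.01 with normexp, CCND1 A_24_P124550 became 0.02 and CCND1 A_23_P202837 became 0.06 without the block, and without single arrays RB1 A_23_P204850 ran from -0.14 to 0.01, RB1 A_24_P102636 from -0.02 to 0.39 and CCND1 A_24_P124550 from -0.17 to 0.20. The causes were not tested. No paired analysis was possible because the groups share no replicate numbers, and the set stood as the block. With 1 array for most duplexes, with pooled RNA, and with dim second probes, differences of the members may have been missed.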
